A study of Homo sapiens with 6 samples.

Results

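Of 47 listed genes of the type I interferon response, 46 were measured among the 18377 genes tested in TF-1, a human erythroleukaemia cell line, labelled as acute myeloid leukaemia, that depends on a cytokine for growth. They were chosen by gene symbol: a probe set counted for a gene when the platform annotation gave it that symbol and no other, and each of the 46 had 1 such probe set. STAT2 was not analysed here. The study set TF-1 cells transfected with human PRL-3 (3 arrays, numbered 4 to 6) against TF-1 cells transfected with a pEGFP control vector (3 arrays, numbered 1 to 3), in a series about the part of PRL-3 in leukaemia. PRL-3 is a protein tyrosine phosphatase encoded by PTP4A3. All cells grew in RPMI with 10% FBS and 5 ng/ml human IL-3, and no interferon is named in the labels. The labels do not say which promoter drove PRL-3, whether a line was 1 clone or whether the arrays of one condition are separate cultures. The p-values therefore cover the variation from array to array alone, and that may be technical. Levels below are log2 of the deposited intensity and differences are PRL-3 minus control on that scale.

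Type I interferons are secreted when a cell detects foreign nucleic acid. They bind a receptor made of the IFNAR1 and IFNAR2 chains, whose kinases JAK1 and TYK2 activate transcription factors of the STAT family. A complex that holds STAT2 and IRF9 then enters the nucleus and binds a promoter element, the interferon-stimulated response element, in front of genes whose products block viral entry, degrade or bind foreign RNA, and mark proteins with ISG15. Many blood cells keep a basal level of this programme without added interferon.

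The RefSeq promoter windows of members that passed the test are shown because they let a reader see where the core of this element lies in the genes that rose and in those that fell. The core searched for was GAAA, any 2 bases and GAAA again, on either strand. Each window (build GRCh38.p14) runs 5′ to 3′ on the gene's strand, from 250 bases before to 50 bases after the annotated start. Capitals mark every match to the core or its reverse complement, and overlapping matches merge into 1 run. Among members that rose, the windows were chr10:89392373-89392672 (IFIT1, + strand), chr11:313790-314089 (IFITM1, + strand), chr4:88456869-88457168 (HERC5, + strand), chr1:27672143-27672442 (IFI6, − strand) and chr19:18173563-18173862 (IFI30, + strand).
IFIT1: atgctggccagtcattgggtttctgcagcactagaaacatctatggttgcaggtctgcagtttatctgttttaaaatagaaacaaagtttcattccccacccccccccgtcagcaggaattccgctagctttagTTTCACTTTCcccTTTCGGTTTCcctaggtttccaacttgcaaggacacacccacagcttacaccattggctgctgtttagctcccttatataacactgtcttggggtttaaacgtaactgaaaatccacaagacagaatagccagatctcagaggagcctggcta
IFITM1: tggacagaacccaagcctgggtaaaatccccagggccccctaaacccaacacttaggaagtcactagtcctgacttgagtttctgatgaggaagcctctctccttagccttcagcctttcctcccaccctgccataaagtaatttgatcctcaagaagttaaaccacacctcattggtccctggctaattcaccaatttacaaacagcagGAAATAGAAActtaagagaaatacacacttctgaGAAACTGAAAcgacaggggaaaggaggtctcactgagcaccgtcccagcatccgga
HERC5: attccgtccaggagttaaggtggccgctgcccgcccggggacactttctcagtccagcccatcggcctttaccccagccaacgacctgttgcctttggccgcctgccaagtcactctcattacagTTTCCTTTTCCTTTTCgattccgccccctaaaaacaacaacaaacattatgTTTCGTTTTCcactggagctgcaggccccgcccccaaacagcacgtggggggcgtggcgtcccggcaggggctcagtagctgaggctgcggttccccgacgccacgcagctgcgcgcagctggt
IFI6: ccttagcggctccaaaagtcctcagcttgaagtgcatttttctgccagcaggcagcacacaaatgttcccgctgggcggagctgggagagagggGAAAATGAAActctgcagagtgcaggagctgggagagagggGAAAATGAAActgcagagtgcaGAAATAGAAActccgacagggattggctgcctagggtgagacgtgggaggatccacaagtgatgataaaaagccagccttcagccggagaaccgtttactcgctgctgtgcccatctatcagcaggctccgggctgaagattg
IFI30: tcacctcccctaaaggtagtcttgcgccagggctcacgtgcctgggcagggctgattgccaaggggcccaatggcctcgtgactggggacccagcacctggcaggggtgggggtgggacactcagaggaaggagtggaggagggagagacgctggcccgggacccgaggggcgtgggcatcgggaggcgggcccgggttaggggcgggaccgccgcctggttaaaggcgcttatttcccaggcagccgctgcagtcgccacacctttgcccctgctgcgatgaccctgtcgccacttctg

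Among members that fell, the windows were chr4:88378602-88378901 (HERC6, + strand), chr7:93117930-93118229 (SAMD9, − strand), chr7:93148336-93148635 (SAMD9L, − strand), chr1:159008741-159009040 (IFI16, + strand) and chr17:6755796-6756095 (XAF1, + strand). For IFI16 and XAF1 RefSeq gave 2 windows, of which the one listed earlier is printed.
HERC6: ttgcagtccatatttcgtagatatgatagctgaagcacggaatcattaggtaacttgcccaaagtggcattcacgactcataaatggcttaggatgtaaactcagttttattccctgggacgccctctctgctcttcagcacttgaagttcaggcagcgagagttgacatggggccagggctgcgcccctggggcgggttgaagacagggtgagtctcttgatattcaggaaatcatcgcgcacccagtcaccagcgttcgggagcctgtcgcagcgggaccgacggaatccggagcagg
SAMD9: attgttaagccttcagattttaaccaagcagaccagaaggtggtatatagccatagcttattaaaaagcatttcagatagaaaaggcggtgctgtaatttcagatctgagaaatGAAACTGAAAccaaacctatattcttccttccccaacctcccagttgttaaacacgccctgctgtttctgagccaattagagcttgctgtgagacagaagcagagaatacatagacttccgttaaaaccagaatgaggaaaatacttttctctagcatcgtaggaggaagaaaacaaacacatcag
SAMD9L: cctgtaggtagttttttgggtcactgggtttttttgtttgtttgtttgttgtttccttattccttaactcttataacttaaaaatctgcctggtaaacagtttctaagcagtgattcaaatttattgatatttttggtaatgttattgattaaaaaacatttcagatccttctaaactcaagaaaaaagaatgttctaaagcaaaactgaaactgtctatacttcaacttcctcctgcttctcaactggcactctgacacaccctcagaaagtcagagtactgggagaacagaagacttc
IFI16: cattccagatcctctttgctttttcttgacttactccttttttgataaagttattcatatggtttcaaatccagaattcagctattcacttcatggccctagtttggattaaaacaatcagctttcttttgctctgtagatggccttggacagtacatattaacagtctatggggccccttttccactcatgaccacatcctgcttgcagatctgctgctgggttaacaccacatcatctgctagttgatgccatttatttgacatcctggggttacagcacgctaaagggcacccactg
XAF1: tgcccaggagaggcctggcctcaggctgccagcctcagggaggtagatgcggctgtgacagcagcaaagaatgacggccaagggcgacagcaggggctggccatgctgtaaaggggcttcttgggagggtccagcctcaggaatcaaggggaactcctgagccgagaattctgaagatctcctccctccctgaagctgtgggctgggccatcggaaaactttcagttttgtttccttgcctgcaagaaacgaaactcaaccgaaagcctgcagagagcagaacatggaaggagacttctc

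The core was found in a window of 4 of the 5 rising members that had one, with 3 matches each in HERC5 and IFI6 and 2 each in IFIT1 and IFITM1. It was found in 1 of the 5 falling members that had a window, SAMD9, and in 17 of 25 members that did not pass. Over all 36 members with a window 22 held it, against 4.38% of the 27305 genes in the table and 3.57% of all 35116 windows. The shorter element TTCNNNGAA, which reads the same on both strands and can be bound by STAT dimers, was found in 11 of the 36 members and in 9.38% of all genes. The difference between rising and falling members was not tested. These are matches of letters, not sites shown to be bound. No window is shown for IFNAR2, IFIT2, IFITM2 and TRIM22.

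PRL-3 arrays differed from control arrays in 14 of the 46 members in limma at adjusted p 0.05: 8 rose and 6 fell. Of all genes tested 7.69% passed, 4.58% higher and 3.11% lower with PRL-3. The members were chosen with earlier results of these data known, so their shares beside those of all genes are description alone. The rises were IFIT1, IFI30, IFITM1, IFNAR2, IFITM2, IFIT2, IFI6 and HERC5, at 0.35 to 0.80. The falls were IFI16, XAF1, HERC6, TRIM22, SAMD9 and SAMD9L, at -0.80 to -0.46. The median difference of the 46 members was -0.04, against -0.02 for all genes, while the median size of a difference without its sign was 0.15 in members and 0.09 in all genes. PTP4A3 itself read 10.81, 10.93 and 10.79 in PRL-3 arrays, against 7.92, 8.03 and 7.97 in control arrays, as the labels have it, and was 7.33-fold higher with PRL-3 (adjusted p = 2.24e-06, limma).

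**Figure D1:**
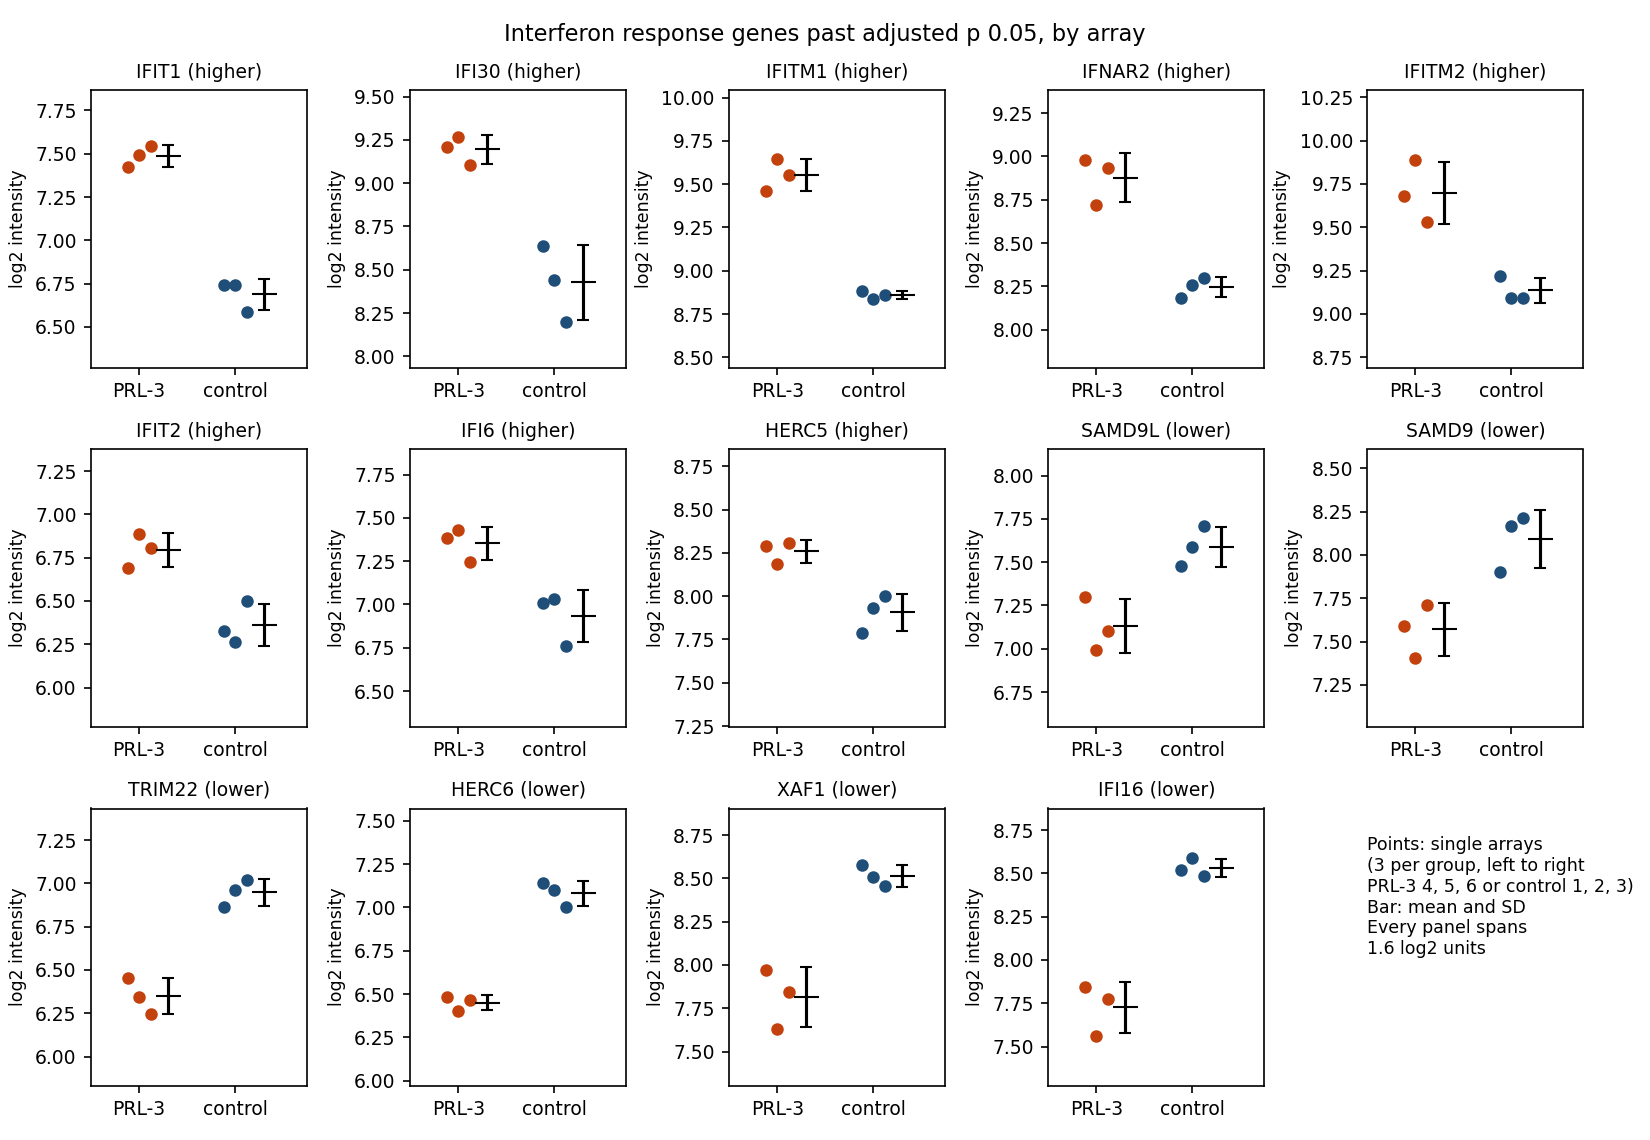
Log2 intensity of the 14 interferon response genes that passed, 1 panel a gene, with PRL-3 arrays left of control arrays. Points are single arrays, bars are mean and SD, and every panel spans the same range; in all 14 panels the arrays of the groups do not overlap.

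In 20 of the 46 members, or 43.5%, the arrays of the groups did not overlap, against 24.3% of all genes. The other 6 of these 20 (RIGI, DDX60, OAS1, CMPK2, IFI35 and IFI44L) were each lower with PRL-3 and did not pass the test. They were 18.8% of the 32 members that did not pass. Among all 18377 genes the groups did not overlap in 4469, 2232 higher and 2237 lower, while 1413 passed. Whether the members differ from other genes in this was not tested. With 3 arrays against 3 an exact two-sided permutation test of 1 gene cannot go below p = 0.1. An unequal-variance test of each gene on its own values called 0 of the 46 members after adjustment, against 0.0599% of all genes. In limma 18 members, or 39.1%, had an unadjusted p under 0.05, against 20.2% of all genes.

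**Figure D2:**
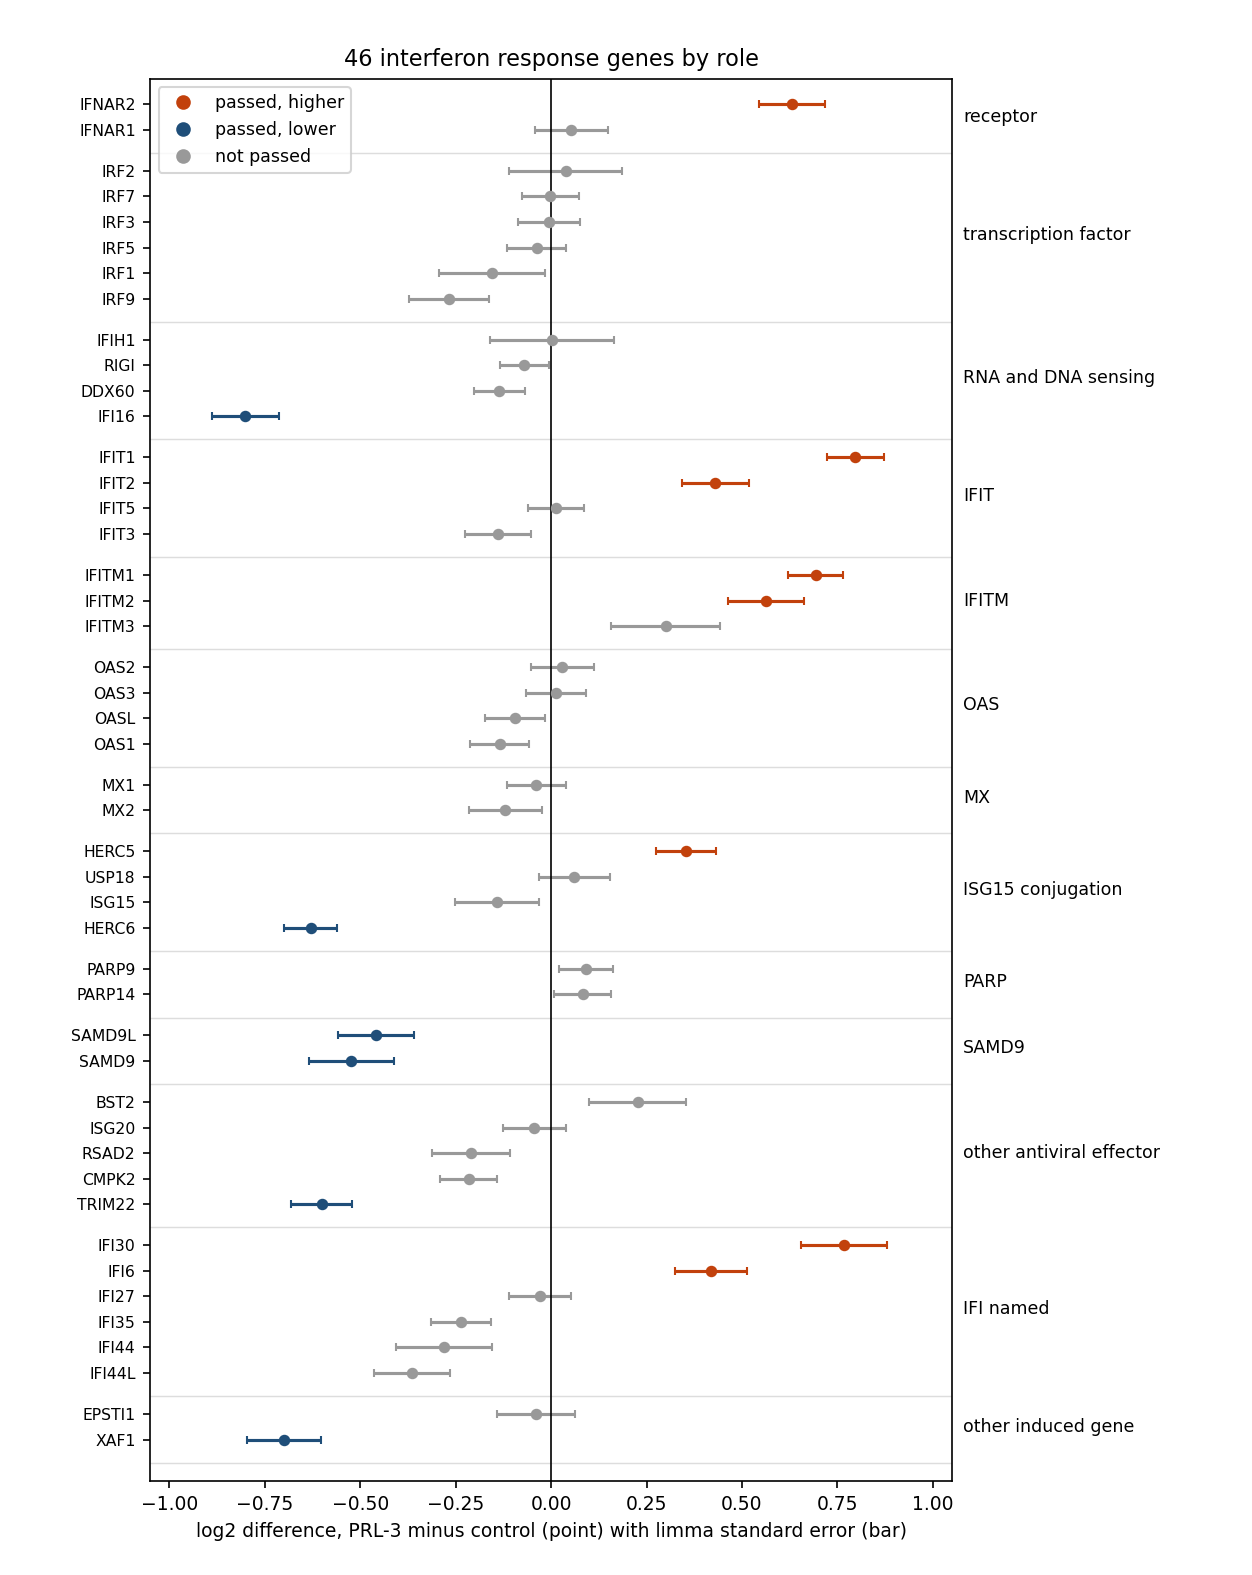
Log2 difference, PRL-3 minus control, with limma's standard error for all 46 members, grouped by role. The 8 members in orange rose and the 6 in blue fell; the transcription factors, the OAS and MX families and the PARP genes lie between -0.27 and 0.09.

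Of the 2 receptor chains IFNAR2 rose and IFNAR1 did not pass. IFNAR2, the chain that binds interferon tightly and docks STAT2, read 8.98, 8.72 and 8.94 in PRL-3 arrays, against 8.18, 8.26 and 8.30 in control arrays. All PRL-3 arrays lay above all control arrays, by 0.63 ± 0.086 (SE), or 1.55-fold (adjusted p = 0.00447, limma). IFNAR1, the other chain, averaged 8.43 ± 0.15 in PRL-3 and 8.37 ± 0.11 in control arrays (SD, n = 3 each), a difference of 0.05 ± 0.096 (SE, adjusted p = 0.843, limma). The groups overlapped in IFNAR1. The change in IFNAR2 exceeded that in IFNAR1 by 0.58. No test is given for this, since the gap between the groups in IFNAR2 was wider than the whole range of IFNAR1. IL10RB, a chain of other receptors and the next measured gene after IFNAR2 on its chromosome, differed by 0.33 (adjusted p = 0.27, limma).

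Of the 6 measured transcription factors limma called 0, against 7.69% of all genes. An unadjusted p under 0.05 was seen in 1 of them, against 20.2% of all genes. IRF9, a DNA-binding part of the complex with STAT2, averaged 7.00 ± 0.13 in PRL-3 and 7.27 ± 0.17 in control arrays (SD, n = 3 each). The difference of -0.27 ± 0.11 (SE) had that unadjusted p and did not pass (adjusted p = 0.198, limma). IRF1, an early activator, differed by -0.16 ± 0.14 (SE, adjusted p = 0.628, limma), with control 3 at 6.01 and the other control arrays at 6.50 and 6.51. IRF2, IRF3, IRF5 and IRF7 differed by -0.04 to 0.04. IRF3 and IRF7, which switch on the interferon genes themselves, differed by -0.01 and -0.00.

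Of the sensors of foreign nucleic acid 1 of 4 passed, against 7.69% of all genes. IFI16, a sensor of DNA, read 7.85, 7.56 and 7.77 in PRL-3 arrays, against 8.52, 8.59 and 8.48 in control arrays. It was the member that fell most: the groups were well apart, at -0.80 ± 0.088 (SE), a 1.74-fold decrease (limma, adjusted p = 0.00181). Its measured neighbours PYHIN1 and AIM2, of the same family, differed by -0.01 and -0.04. The RNA sensors RIGI and IFIH1 differed by -0.07 and 0.00, and DDX60, a helicase, by -0.14 (adjusted p = 0.637, 0.997 and 0.318 in that order, limma). IFIH1 varied by about as much in each group (SD 0.26 and 0.27).

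IFIT proteins bind foreign RNA and keep it from being translated. IFIT1, which recognises RNA with an incomplete cap, rose most of all members. It read 7.42, 7.49 and 7.54 in PRL-3 arrays, against 6.74, 6.74 and 6.59 in control arrays. The gap between the groups was far wider than the spread within them, at 0.80 ± 0.075 (SE), or 1.74-fold (adjusted p = 0.000947, limma). IFIT2 read 6.69, 6.88 and 6.81 in PRL-3 arrays, against 6.33, 6.26 and 6.50 in control arrays. PRL-3 4 and control 3 were the closest pair, and the difference was 0.43 ± 0.088 (SE, adjusted p = 0.024, limma). IFIT2 lost its call without control 1 (adjusted p = 0.0714), control 2 (0.112), PRL-3 4 (0.051), PRL-3 5 (0.057) or PRL-3 6 (0.0941, all limma).

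IFIT3, the partner that steadies IFIT1 on RNA, did not pass. It averaged 7.77 ± 0.051 in PRL-3 and 7.91 ± 0.14 in control arrays (SD, n = 3 each), a difference of -0.14 ± 0.086 (SE, adjusted p = 0.447, limma). IFIT5 differed by 0.01 ± 0.073 (SE, adjusted p = 0.96, limma). The IFIT1 value minus the IFIT3 value of each array was 0.94 higher with PRL-3, and for IFIT2 minus IFIT3 it was 0.57 higher. No test is given for either, since IFIT1 and IFIT2 had passed in these same arrays and IFIT3 had not. IFIT1 and IFIT5 are neighbours among the measured genes, as are IFIT2 and IFIT3, and IFIT1B, on the other side of IFIT1, differed by -0.02. Both windows of IFIT3 and the window of IFIT5 held the GAAA core, as did that of IFIT1.

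IFITM proteins sit in membranes and block viral entry. IFITM1 read 9.46, 9.64 and 9.55 in PRL-3 arrays, against 8.88, 8.84 and 8.86 in control arrays. The control arrays were almost level, and the difference was 0.69 ± 0.072 (SE), or 1.62-fold (adjusted p = 0.00146, limma). IFITM2 read 9.68, 9.89 and 9.53 in PRL-3 arrays, against 9.22, 9.09 and 9.09 in control arrays, with no overlap. Its difference was 0.56 ± 0.099 (SE, adjusted p = 0.013, limma), and it lost its call without control 2 (adjusted p = 0.0755) or PRL-3 4 (0.0573, limma). IFITM3 read 9.46, 9.74 and 9.57 in PRL-3 arrays, against 9.47, 9.45 and 8.97 in control arrays. Control 3 lay far below the other control arrays, and the difference of 0.30 ± 0.14 (SE) did not pass (adjusted p = 0.293, limma). The 3 genes are neighbours with very similar coding sequences, so each probe set may read part of the others and their separate values are uncertain.

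Most proteins of the OAS family make the messenger that activates RNase L. Of its 4 members limma called 0, also at an unadjusted p under 0.05, against 7.69% and 20.2% of all genes. OAS1 and OASL differed by -0.13 ± 0.076 and -0.09 ± 0.078 (SE), OAS2 and OAS3 by 0.03 and 0.01, with adjusted p of 0.396 to 0.963 in limma. The MX proteins, GTPases that trap viral particles, differed by -0.04 ± 0.078 (MX1) and -0.12 ± 0.095 (MX2; SE). Their adjusted p in limma was 0.861 and 0.576. MX1, MX2, OAS2, IFIT5 and DDX60 were the 5 members whose mean level lay in the lowest 20% of all genes. The table held no detection call, so whether these 5 were detected cannot be said.

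ISG15 is a ubiquitin-like protein that is joined to other proteins by ligases and removed by USP18. HERC5, the main human ligase for ISG15, read 8.29, 8.18 and 8.30 in PRL-3 arrays, against 7.79, 7.93 and 8.00 in control arrays. The groups did not overlap and the difference was 0.35 ± 0.079 (SE, adjusted p = 0.0337, limma). HERC5 lost its call without control 1 (adjusted p = 0.1), control 2 (0.117), PRL-3 4 (0.135) or PRL-3 6 (0.132), and also after quantile normalization (0.0636) and with an intensity trend and robust variances (0.0609, all limma). HERC6, the related ligase that attaches ISG15 in mice, read 6.49, 6.40 and 6.46 in PRL-3 arrays, against 7.14, 7.10 and 7.00 in control arrays. Both groups were tight, and HERC6 fell by 0.63 ± 0.069 (SE), a 1.55-fold decrease (limma, adjusted p = 0.00185).

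HERC5 and HERC6 are next to each other among the measured genes and moved in opposite directions. The HERC5 value minus the HERC6 value of each array was 0.98 higher with PRL-3. No test is given for it, since groups that are apart in opposite directions fix its result. The neighbours on either side, HERC3 and PPM1K, differed by 0.23 and 0.11 (adjusted p = 0.363 and 0.508, limma). The HERC5 window held 3 matches to the GAAA core and the HERC6 window 0. The core was also found in 17 of 25 members that did not pass, and its part in these directions was not tested. ISG15 averaged 6.30 ± 0.18 in PRL-3 and 6.44 ± 0.13 in control arrays (SD, n = 3 each) and did not pass (-0.14 ± 0.11, SE, adjusted p = 0.569, limma). USP18, which also blocks signalling at IFNAR2, differed by 0.06 ± 0.093 (SE, adjusted p = 0.804, limma). A further probe set (8074606), annotated to both USP41P and USP18 and so not counted for USP18, differed by 0.20 ± 0.08 (SE, adjusted p = 0.273 over all probe sets, limma).

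SAMD9 and SAMD9L, neighbouring genes whose proteins restrict poxviruses and hold back the growth of blood progenitors, both fell. SAMD9 read 7.59, 7.41 and 7.71 in PRL-3 arrays, against 7.90, 8.17 and 8.21 in control arrays. The difference was -0.52 ± 0.11 (SE, adjusted p = 0.0277, limma), with PRL-3 6 and control 1 closest to each other. SAMD9L read 7.30, 6.99 and 7.10 in PRL-3 arrays, against 7.48, 7.59 and 7.71 in control arrays. PRL-3 4 and control 1 were closest, and the difference was -0.46 ± 0.099 (SE, adjusted p = 0.0295, limma). SAMD9 lost its call without control 2 (adjusted p = 0.126), control 3 (0.0539), PRL-3 4 (0.0982) or PRL-3 5 (0.0587), and SAMD9L without control 2 (0.118), control 3 (0.0562), PRL-3 5 (0.0651) or PRL-3 6 (0.112, all limma). CDK6, a cell cycle kinase and the measured gene next to SAMD9, fell too, by 0.62 (adjusted p = 0.00366, limma), and passed whichever array was left out. HEPACAM2, on the other side of SAMD9L, differed by -0.23 (adjusted p = 0.29, limma). PARP9 and PARP14, which attach ADP-ribose to proteins, differed by 0.09 and 0.08 (adjusted p = 0.561 and 0.641, limma).

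Among other antiviral effectors TRIM22, a ubiquitin ligase that restricts retroviruses, fell. It read 6.45, 6.34 and 6.25 in PRL-3 arrays, against 6.87, 6.96 and 7.02 in control arrays. The groups were apart, at -0.60 ± 0.08 (SE), a 1.52-fold decrease (limma, adjusted p = 0.00399). Its neighbour TRIM5, a restriction factor of the same family, differed by 0.10 (adjusted p = 0.676, limma). CMPK2, a mitochondrial nucleotide kinase, averaged 7.43 ± 0.03 in PRL-3 and 7.64 ± 0.11 in control arrays (SD, n = 3 each) and did not pass (-0.22 ± 0.075, SE, adjusted p = 0.144, limma). BST2, which tethers budding viruses to the cell, differed by 0.23 ± 0.13 (SE, adjusted p = 0.393, limma). RSAD2, an enzyme that makes a chain-ending nucleotide, and ISG20, an exonuclease, differed by -0.21 and -0.04 (adjusted p = 0.314 and 0.852, limma).

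IFI30, a thiol reductase that opens disulfide bonds of antigens in lysosomes, was second to IFIT1 in its rise. It read 9.21, 9.27 and 9.11 in PRL-3 arrays, against 8.64, 8.44 and 8.20 in control arrays. The control arrays were spread more widely than the PRL-3 arrays, and the difference was 0.77 ± 0.11 (SE), or 1.70-fold (adjusted p = 0.00604, limma). IFI6, a small membrane protein, read 7.38, 7.43 and 7.25 in PRL-3 arrays, against 7.01, 7.03 and 6.76 in control arrays. PRL-3 6 and control 3 were the lowest of their groups, and the difference was 0.42 ± 0.094 (SE, adjusted p = 0.0335, limma). IFI6 lost its call without control 1 (adjusted p = 0.0584), control 2 (0.0826), PRL-3 4 (0.13), PRL-3 5 (0.0769) or PRL-3 6 (0.0651, all limma).

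XAF1, which binds and counters the caspase inhibitor XIAP, read 7.97, 7.63 and 7.84 in PRL-3 arrays, against 8.58, 8.51 and 8.45 in control arrays. PRL-3 5 was lowest and the groups did not overlap. XAF1 fell by 0.70 ± 0.096 (SE), a 1.62-fold decrease (limma, adjusted p = 0.00454). IFI44L read 5.55, 5.59 and 5.80 in PRL-3 arrays, against 5.85, 6.13 and 6.04 in control arrays. PRL-3 6 and control 1 nearly met, and the difference of -0.36 ± 0.1 (SE) did not pass (adjusted p = 0.0697, limma). IFI44 differed by -0.28 ± 0.13 (SE) and IFI35 by -0.24 (adjusted p = 0.266 and 0.125, limma). IFI27 and EPSTI1 differed by -0.03 and -0.04 (adjusted p = 0.908 and 0.898, limma).

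With each array left out in turn 8 of the 14 members passed in all 6 fits: IFIT1, IFI30, IFITM1, IFNAR2, IFI16, XAF1, HERC6 and TRIM22. The other 6 each lost the call in at least 1 fit, and these fits have fewer arrays. Without control 2, 4 members passed higher and 4 lower, while 3.08% of all genes passed. Without PRL-3 4 these were 4 and 5 members and 3.29% of all genes. Members passing higher and lower were 5 and 6 without control 1 (4.75% of all genes) and 5 and 5 without PRL-3 6 (3.59%). The remaining fits gave 8 and 4 without control 3 (8.37%) and 6 and 4 without PRL-3 5 (6.85%).

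**Figure D3:**
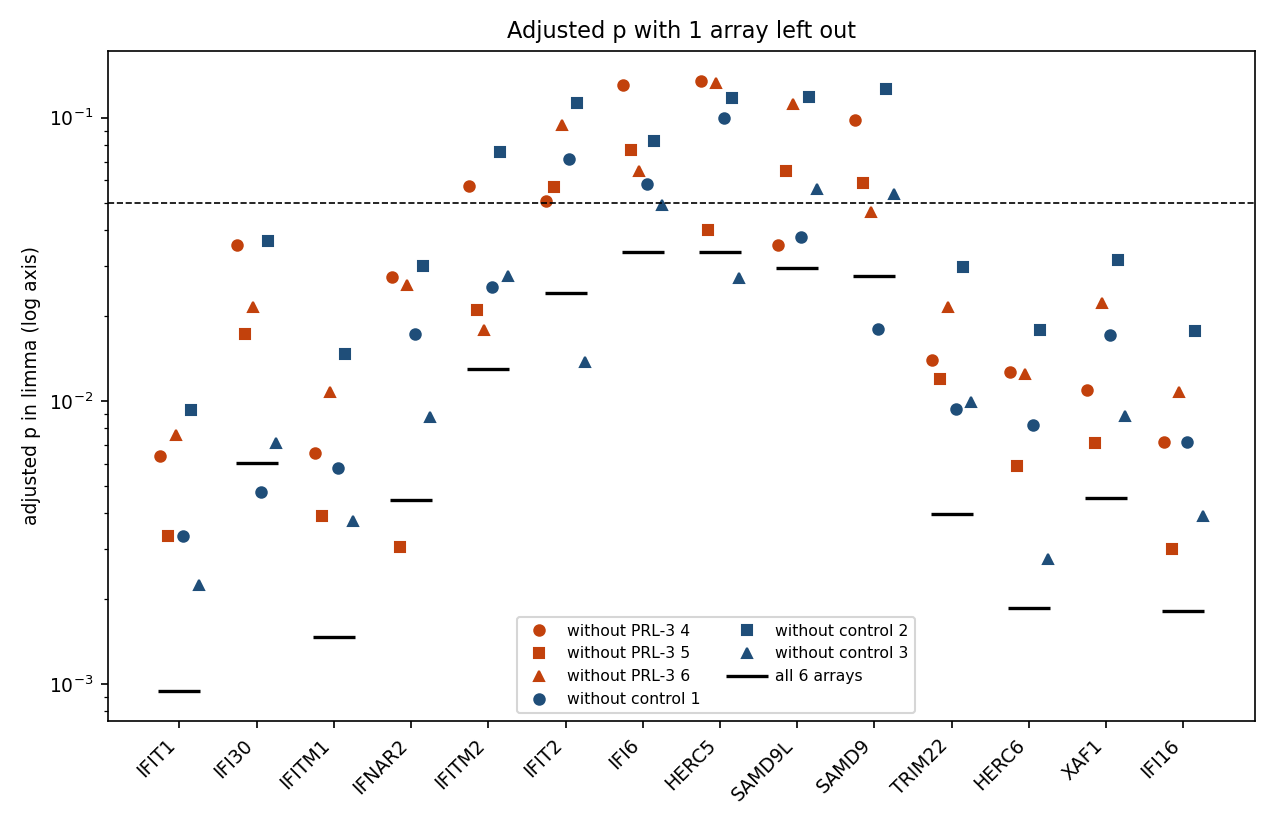
Adjusted p in limma (log axis) of the 14 members that passed, from the fit of all 6 arrays (black bars) and with each array left out (points). The dashed line marks 0.05; IFITM2, IFIT2, IFI6, HERC5, SAMD9L and SAMD9 have points above it and the other 8 genes have none.

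Within the groups no array was lowest in all members. PRL-3 5 was the lowest PRL-3 array in 24 of the 46 members, or 52.2%, against 37% of all genes. Control 1 was the lowest control array in 23 members, or 50%, against 35.4% of all genes. PRL-3 5 was also the highest PRL-3 array in 15 members, and control 3 was the lowest control array in 17. Among members that passed, PRL-3 5 and control 1 were both lowest in IFNAR2, HERC5, SAMD9 and SAMD9L. With control 1 and PRL-3 5 both left out, a setting chosen after the data were seen, 5 members passed higher and 6 lower. Of all genes 6.34% passed in that fit. IFIT2, IFI6 and HERC5 lost their calls in it (adjusted p = 0.0977, 0.0781 and 0.065, limma).

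Other genes of the pathway were taken from lists of 141 genes, of which 127 were measured. The lists were chosen with earlier results of these data known, so their shares are description alone. Of the 127, 11 rose and 8 fell in limma, 15% in all against 7.69% of all genes. Of these 19 genes 6 passed whichever array was left out. The counts of the lists were 3 higher and 3 lower without PRL-3 4, where 3.29% of all genes passed. They were 5 and 3 without PRL-3 6 (3.59% of all genes), 5 and 3 without control 2 (3.08%) and 6 and 3 without control 1 (4.75%). Leaving out PRL-3 5 gave 8 and 6 (6.85%) and leaving out control 3 gave 9 and 8 (8.37%). The median difference of the 127 was -0.01. Among 8 measured genes of JAK-STAT signalling and its feedback limma called 0, and 1 had an unadjusted p under 0.05. These shares were 7.69% and 20.2% in all genes. The receptor kinases JAK1 and TYK2 differed by -0.17 and -0.10 and the feedback inhibitors SOCS1 and SOCS3 by 0.13 and 0.28 (adjusted p = 0.478, 0.688, 0.614 and 0.191 in that order, limma). Of the 4 chains of receptors for interferon gamma and lambda limma called 0, and 1 had an unadjusted p under 0.05. Of 16 measured interferon genes 12 lay in the lowest 20% of all genes in level. Of the 16, 1 rose, or 6.25% against 7.69% of all genes. It was IFNK, the type I interferon of keratinocytes. IFNK differed by 0.53 ± 0.087 (SE, adjusted p = 0.0094, limma) and lost its call without PRL-3 4 (adjusted p = 0.0537, limma). IFNB1, the interferon most cell types make, averaged 4.82 ± 0.1 in PRL-3 and 4.83 ± 0.029 in control arrays (SD, n = 3 each).

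Of 19 measured sensors and adaptors 1 rose and 2 fell, or 15.8% against 7.69% of all genes. MYD88 and TRAF3, adaptors that lead from receptors to the interferon genes, differed by -0.45 and -0.40, and TLR8, a receptor for RNA, by 0.36 from a level in the lowest 20%. Their adjusted p was 0.0457, 0.0386 and 0.0389 in limma, and each lost its call in at least 4 of the 6 fits without 1 array, with adjusted p of up to 0.167, 0.158 and 0.156. Of 20 measured genes that respond to interferon gamma 5 rose and 1 fell, or 30% against 7.69% of all genes. GBP2, a GTPase that attacks the membranes of pathogens, rose by 1.31 ± 0.063 (SE), or 2.49-fold (adjusted p = 4.88e-05, limma). GBP2 read 7.42, 7.40 and 7.47 in PRL-3 arrays, against 6.14, 6.08 and 6.12 in control arrays, with a gap far wider than the spread. CD274, the ligand of the PD-1 receptor, WARS1, a tRNA synthetase, and CXCL11, a chemokine whose level lay in the lowest 20% of all genes, rose by 0.50, 0.47 and 0.44. Each of these 3 lost its call in at least 4 of the 6 fits without 1 array, with adjusted p of up to 0.1, 0.15 and 0.0723 (limma). The gene of this list that fell was NLRC5 (-0.36 ± 0.085, SE, adjusted p = 0.0396, limma). It lost its call in 5 of the 6 fits, with adjusted p of up to 0.165 (limma).

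Of 60 measured genes among other interferon-induced genes 4 rose and 5 fell, or 15% against 7.69% of all genes. SP100, a protein of nuclear bodies, fell by 0.86 ± 0.085 (SE, adjusted p = 0.00117, limma). UBA7, the enzyme that activates ISG15 for its ligases, fell by 0.61 ± 0.084 (SE, adjusted p = 0.00462, limma). UBA7 read 6.76, 7.03 and 6.85 in PRL-3 arrays, against 7.48, 7.53 and 7.46 in control arrays, with no overlap. TNFSF10, the death ligand TRAIL, and SLFN5 rose by 0.76 and 0.61 (adjusted p = 0.00627 and 0.00582, limma). These 4 and GBP2 passed whichever array was left out. No list moved in 1 direction throughout: each list with over 1 gene past the threshold held rises and falls.

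**Figure D4:**
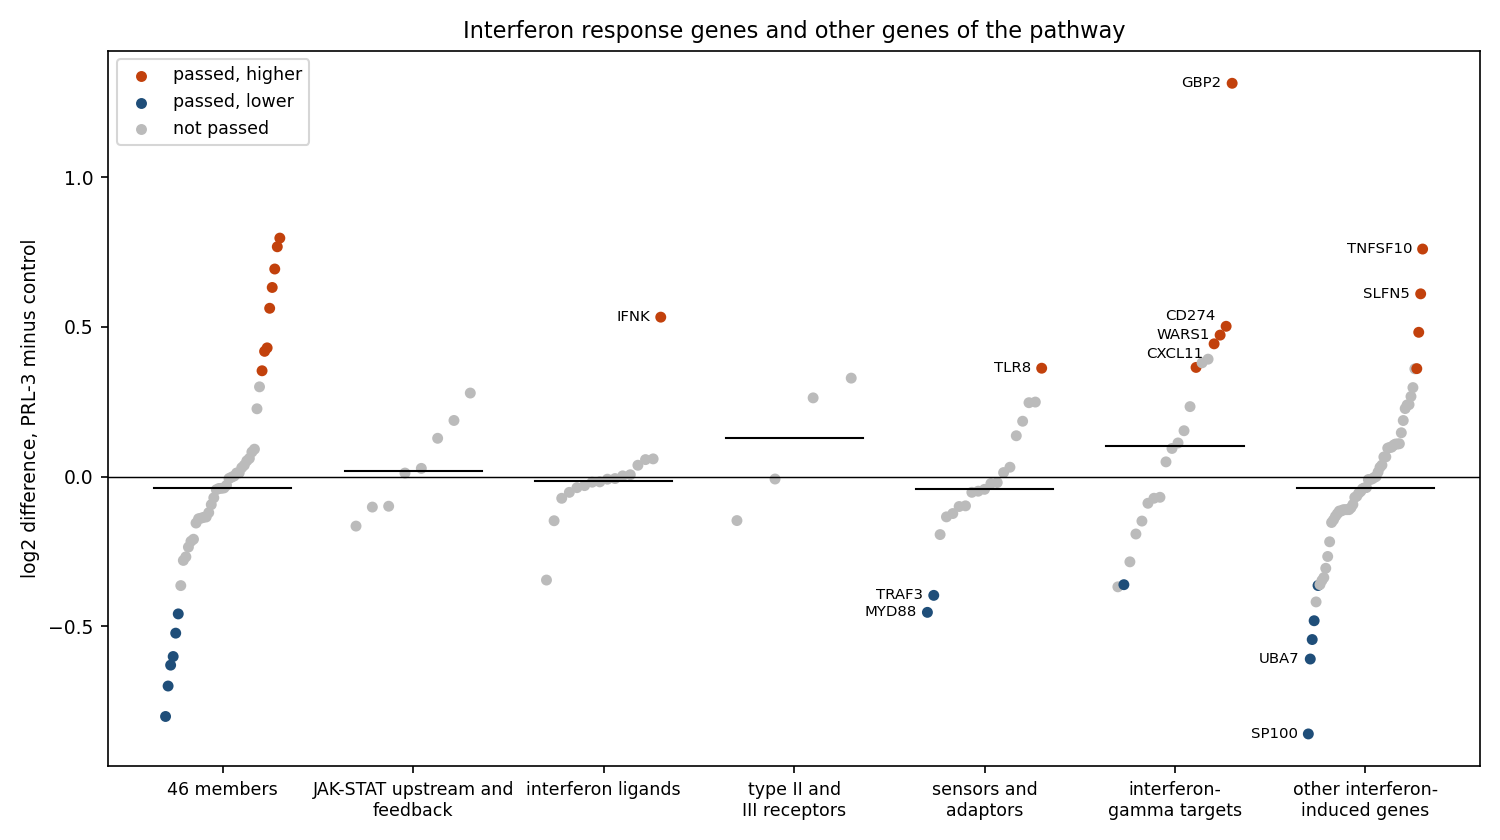
Log2 difference, PRL-3 minus control, of the 46 members and of the genes of 6 other lists of the pathway, sorted within each list, with a bar at the list's median. Orange points rose, blue points fell and grey points did not pass; GBP2 at 1.31 lies above all members.

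TF-1 cells are progenitors with erythroid traits, and of 12 measured markers MYB averaged 11.27 ± 0.067 in PRL-3 and 11.34 ± 0.042 in control arrays and GATA1 8.06 ± 0.34 and 8.14 ± 0.28 in the same order (SD, n = 3 each). Of the 12, KIT (1.01, adjusted p = 0.000721) and CSF2RA (0.27, adjusted p = 0.0407) were higher with PRL-3 and TFRC (-0.52, adjusted p = 0.00273, limma) lower. That is 25%, against 7.69% of all genes. CSF2RA lost its call whichever array was left out (adjusted p of 0.0695 to 0.149, limma). In all 7 of the 12, or 58.3%, had an unadjusted p under 0.05, against 20.2% of all genes. Besides KIT, CSF2RA and TFRC, CSF2RB (-0.57), CD34 (-0.44, with the groups apart) and TAL1 (-0.28) had lower means with PRL-3 and IL3RA (0.49) a higher one. These last 4 did not pass (adjusted p = 0.104, 0.0882, 0.187 and 0.162 in that order, limma). The summed intensity of the 12 was 10189.6 to 10608 in PRL-3 and 12499.8 to 13509 in control arrays. Without TFRC, the brightest of them, the sums overlapped, at 5414 to 6000.1 in PRL-3 and 5677 to 6623 in control arrays. The part of these markers in the interferon genes' differences was not tested. Of 17 measured markers of plasmacytoid dendritic cells, macrophages, lymphocytes, epithelium and fibroblasts limma called 0, also at an unadjusted p under 0.05. Their summed intensity overlapped between the groups in each of the 4 lists, for macrophages and monocytes at 222 to 239 in PRL-3 and 219 to 249 in control arrays. In such bulk RNA fewer cells of a type and less RNA per cell cannot be told apart. Median intensity per array ran from 89.8 to 92.9.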

How the data were processed

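The authors deposited a table of intensity values with 28869 probe sets and 6 arrays. Per the labels' protocols, biotin-labelled cDNA was made from 100 ng of total RNA with Nugen kits. Probe summary, background correction and normalization are not given in the sources used here; array medians lay close together, so the values were taken as normalized. Log2 was taken with no offset and no filter on low values. Names came from the platform's annotation table, in which 19310 probe sets had 1 symbol, 1752 several and 7807 none here. By Entrez identifier 19279 matched RefSeq (GRCh38.p14). The probe set with the highest mean over all arrays stood for each of 18377 genes. The comparison of PRL-3 with control used lmFit and eBayes of limma 3.58.1 under R 4.3.3, two-sided, with Benjamini-Hochberg adjustment over all genes. The test was tried on simulated data with independent noise for each gene and array. Such data hold no differences in quality between arrays, so they do not show the rate of false calls here. Promoter windows were from RefSeq. Figures were drawn with matplotlib 3.10.9.

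The members, lists and role groups were chosen with earlier results of these data known. All members are named, and those past the threshold are given array by array. Of each other list up to 4 genes past it with the largest differences are given, and NLRC5 besides. CDK6 and other neighbours were named after their values were seen. RefSeq gene order was used to find neighbours. Groups came from sample titles; the labels gave no batch, date or pairing. Having 3 arrays a group limits the precision. Alternatives tried were 2 normalizations, 2 filters on low levels, averaging the probe sets of a gene, 3 other variance models or tests, an offset of 16 and leaving out arrays.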

Additional observations from a re-analysis of the deposited data

How the results depend on the processing

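Array weights left 8 members higher and 12 lower, with 2122 genes higher and 2303 lower among all genes. The weights were estimated from these arrays themselves. The 6 members gained in that fit were CMPK2, IFI35, IFI44L, IFIT3, IRF1 and IRF9, all lower, while 24.1% of all genes passed. The unequal-variance test, which uses each gene's own variances, called 0 members higher and 0 lower, and 7 genes higher and 4 lower among all genes. With 1 array left out the members were 4 (without control 2 or PRL-3 4) to 8 higher and 4 to 6 lower, and all genes 388 to 792 higher and 178 to 747 lower. The lowest counts of all genes came without control 2; without PRL-3 4 (405 and 199) and PRL-3 6 (431 and 228) both fell over 1.5 times, and without control 1 those lower did (302). Without control 1 and PRL-3 5 together, chosen after the data were seen, 5 members and 757 of all genes were higher. The median difference of the members was 0.0527 in place of -0.04 among genes above the median level, where 25 members were left. PTP4A3 stayed past the threshold at 2.83 to 2.90 with 1 array left out. No paired analysis was possible because the groups share no replicate numbers. A shift common to most genes would not show in values normalized between arrays, and levels have no known detection floor.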
